A study of Mus musculus with 7 samples.

Results

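Interferon-stimulated effector genes encode the proteins that carry out the antiviral and antimicrobial state a cell enters after it senses interferon. The set comprised 52 genes, chosen by symbol from textbook knowledge of these effectors (the ISG15 system, IFIT and OAS proteins, interferon-inducible GTPases, restriction factors, RNA sensors, PARP enzymes and chemokines), with interferon regulatory factors, receptors and antigen presentation genes left out. The choice was made with earlier results of these data known. All 52 were found among the 53819 gene symbols of the count table, and 51 of them were among the 14935 genes with enough counts to test. The exception was Cxcl10, which encodes a chemokine that attracts activated T cells: it had 4, 7, 6 and 6 counts in the AAV8-Null libraries and 8, 11 and 6 in the AAV8-IGFBP1 libraries.

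The muscle came from wild-type male C57BL/6J mice that had received, at 8 weeks of age, 200 µl of an adeno-associated virus of serotype 8 (AAV8), a vector described by the submitters as homing to the liver, through the tail vein, and quadriceps was taken 54 days later. The AAV8-IGFBP1 group (n = 3 libraries) was given the AAV8-Alb-IGFBP1 construct, made to overexpress insulin-like growth factor binding protein 1, and the AAV8-Null group (n = 4 libraries) the AAV8-Alb-Null construct. Every mouse was therefore injected with a virus, no uninjected mice were analysed here, and the labels give no promoter beyond the Alb in the construct names. Nothing in the labels ties 1 library to 1 mouse, and the p-values therefore reflect the spread among libraries, which could be technical. Library totals were 38947453 to 51210360 counts. Igfbp1 itself had 0, 0, 0 and 8 counts in AAV8-Null and 202, 1425 and 142 counts in AAV8-IGFBP1, in the direction of the labels in every library. Summed over 9 muscle fibre markers, the libraries held 134303 to 161821 counts per 1e+06 counts of the scaled library (CPM), the highest sum of the 12 cell type marker lists. AAV8-IGFBP1 replicate 2 stood apart: on the first principal component of all tested genes, which held 27.2% of the variance, it lay at 45.24, replicates 1 and 3 of its group at 12.64 and 8.24, and the AAV8-Null libraries between -25.69 and -11.93.

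Type I and type III interferons act on their target genes through a complex that holds STAT2 and IRF9 and reads the interferon-stimulated response element (ISRE). Interferon gamma acts through a different DNA site, the gamma-activated site (GAS). The ISG15, IFIT, OAS and MX genes are classical targets of the first route, whereas many guanylate-binding proteins (GBPs), immunity-related GTPases (IRGs) and the chemokine gene Cxcl9 respond strongly to interferon gamma. In skeletal muscle these genes are best known from inflammatory muscle disease, where their products mark an interferon response of the fibres.

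The promoters of these genes were read for both elements, because these are the sites through which interferons are known to induce such genes. Promoter sequences were from RefSeq on GRCm38.p6 (the counts were made on GRCm39), each from 250 bases before to 50 bases after an annotated gene start, and 38 of the 52 members had an entry. The ISRE core was searched as GAAANNGAAA and the GAS as TTCNNNGAA, on both strands. The ISRE core was found in 23 of the 38 members (60.5%), against 1079 of the 27025 genes with an entry (3.99%). The GAS was found in 13 of the 38 (34.2%, against 9.55% of all genes), and both motifs in 1 promoter in 9 of the 38 (23.7%, against 0.54%). A match describes the letters in the window and is not evidence of binding. All 4 GBP members and all 4 IRG members with an entry held the ISRE core, whereas none of the 3 IFI and XAF1 members with an entry did within this window.

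The stretches below are printed in transcript direction and end before the gene start. They belong to the 4 members with the lowest unadjusted p of those that held the ISRE core, and capitals mark that core, on either strand. They are Ifit3 at chr19:34583328-34583461 (plus strand), Bst2 at chr8:71537542-71537647 (minus strand), Gbp7 at chr3:142530238-142530335 (plus strand) and Gbp3 at chr3:142559954-142560043 (plus strand).
Ifit3: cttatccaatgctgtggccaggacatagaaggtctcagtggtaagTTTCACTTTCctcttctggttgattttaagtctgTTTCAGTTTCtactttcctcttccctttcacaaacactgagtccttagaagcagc
Bst2: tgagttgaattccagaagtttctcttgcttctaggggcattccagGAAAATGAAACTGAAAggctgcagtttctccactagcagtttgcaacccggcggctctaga
Gbp7: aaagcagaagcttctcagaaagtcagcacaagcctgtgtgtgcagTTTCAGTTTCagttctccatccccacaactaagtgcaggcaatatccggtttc
Gbp3: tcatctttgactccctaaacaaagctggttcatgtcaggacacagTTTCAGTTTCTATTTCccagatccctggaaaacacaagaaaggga
Ifit3, Bst2 and Gbp3 each carried 2 cores in the printed stretch, overlapping in Bst2 and Gbp3, and Gbp7 carried 1. In Bst2 a GAS began 6 bases before the core and overlapped it, and in Gbp7 a GAS began 34 bases before the core, another lying upstream of the printed stretch. Ifit3 and Gbp3 had no GAS in the window.

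The promoters of 3 IRG genes are shown because they held both motifs in the same arrangement, an arrangement noticed after the matches were seen. Capitals mark the GAS first and the ISRE core after it. The stretches are Igtp at chr11:58199466-58199555 (plus strand), Irgm2 at chr11:58214857-58214967 (plus strand) and Tgtp1 at chr11:48992269-48992379 (minus strand).
Igtp: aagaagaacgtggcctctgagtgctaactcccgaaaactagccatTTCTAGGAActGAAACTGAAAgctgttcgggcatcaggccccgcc
Irgm2: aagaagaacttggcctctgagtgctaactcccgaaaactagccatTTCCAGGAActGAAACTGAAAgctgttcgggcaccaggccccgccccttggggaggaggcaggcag
Tgtp1: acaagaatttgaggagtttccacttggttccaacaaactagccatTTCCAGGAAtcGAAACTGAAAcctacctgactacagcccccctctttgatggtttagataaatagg
In each of these 3 promoters the GAS began 11 bases before the ISRE core. Igtp and Irgm2 are neighbouring genes whose stretches matched at 87 of 90 aligned bases (96.7%), so they are not independent examples. Igtp and Tgtp1 matched at 47 of 90 (52.2%).

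In the AAV8-IGFBP1 muscle, 2 of the 51 tested members rose and 0 fell by edgeR's quasi-likelihood test (Benjamini-Hochberg adjusted p under 0.05 over all genes). These were Ifit3, which encodes an antiviral adaptor of the IFIT family and was 2.11-fold higher, and Bst2, which encodes tetherin and was 1.73-fold higher. Over all tested genes 0.362% were called higher and 0.194% lower. At an unadjusted edgeR p under 0.05, 26 of 51 members (51%) were higher and 0 lower, against 5.80% of all genes higher. DESeq2 called 13 members higher (25.5%, against 1.45% of all genes) and 0 lower: Ifit2, Ifit3, Oasl2, Bst2, Rtp4, Ifi44, Gbp3, Gbp7, Igtp, Irgm1, Irgm2, Parp14 and Cxcl9. limma-voom called 1 higher (Bst2) and 0 lower, with 44 of all 14935 tested genes called higher.

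The direction was shared by nearly all of the members. The log2 fold change, AAV8-IGFBP1 over AAV8-Null, was above 0 in 50 of 51 (98%), against 49.9% of all tested genes, and the exception was Ifitm2. The median over the 51 was 0.52, and over all tested genes it was -0.0007. In 19 of 51 members (37.3%) every AAV8-IGFBP1 library lay above every AAV8-Null library, against 6.33% of all tested genes. Because the members were chosen with earlier results of these data known, these shares describe the list and are not a test of it. Members next to each other in the genome and members with near-identical copies may share part of their signal, so they are not independent counts. In whole muscle, more cells of a type and more RNA per cell cannot be told apart.

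**Figure D1:**
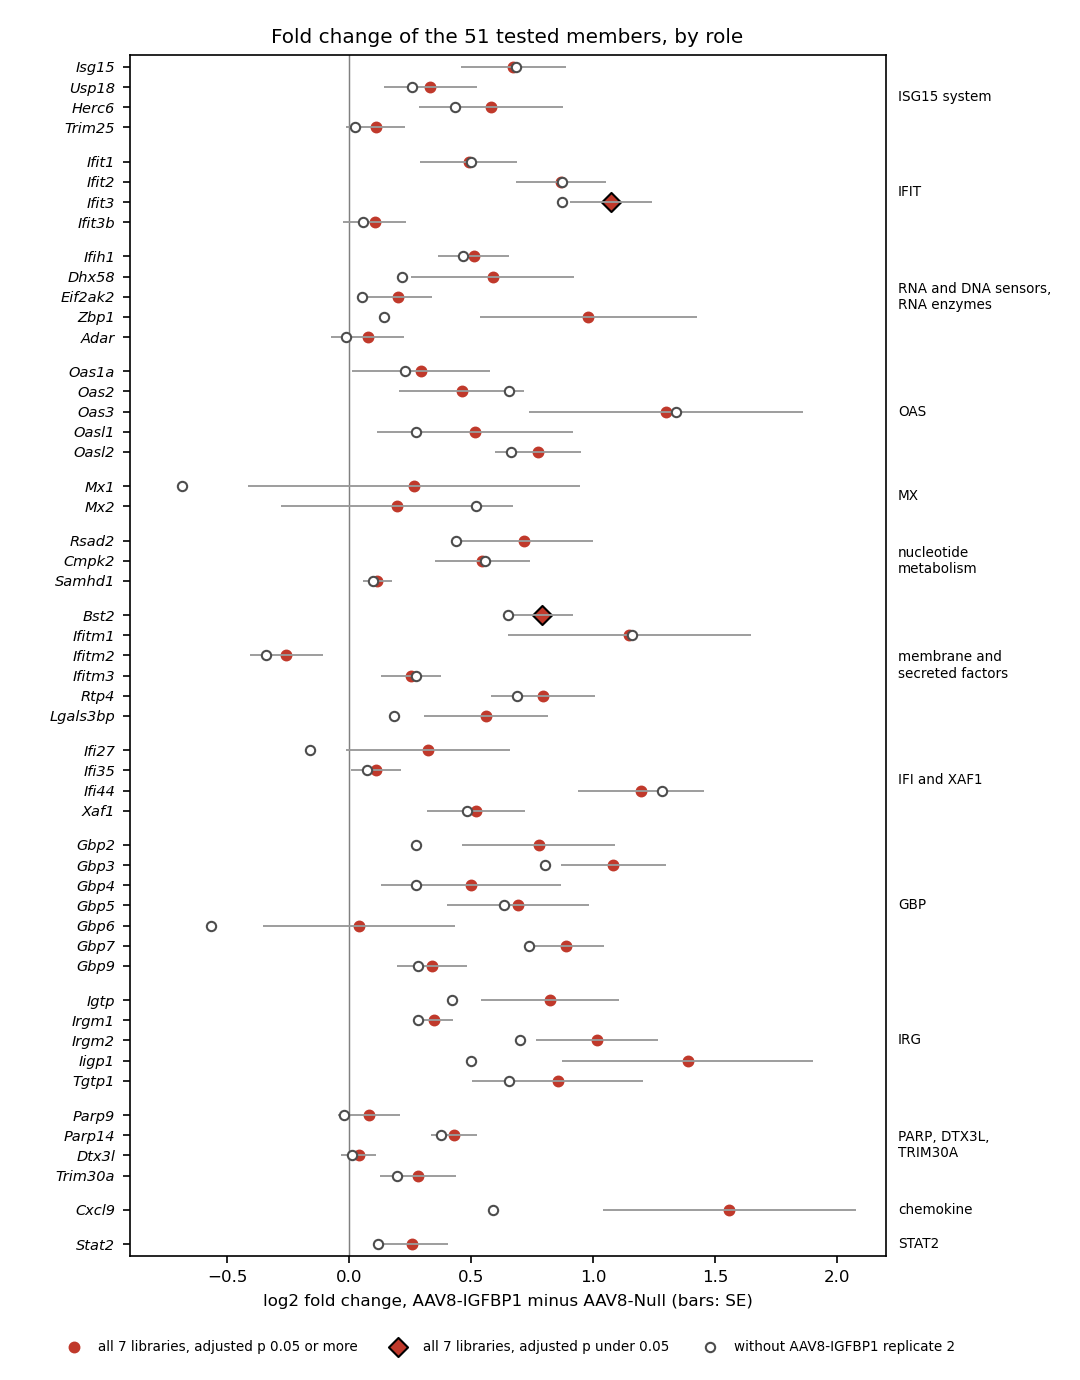
Log2 fold change of each of the 51 tested members (horizontal axis, AAV8-IGFBP1 over AAV8-Null) with its standard error as a line, grouped by role, and open circles for the value without AAV8-IGFBP1 replicate 2. With all 7 libraries every member but Ifitm2 lies above 0, and Ifit3 and Bst2 (diamonds) are the 2 that passed the edgeR test.

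The calls depended on single libraries. Without AAV8-IGFBP1 replicate 3, the AAV8-IGFBP1 library with the lowest mean member level, 5 members were called (Ifit2, Ifit3, Bst2, Gbp3 and Gbp7). In that fit 39 of all 15214 tested genes were called higher. Without AAV8-Null replicate 2, only Gbp7 was called, and 0 were called by edgeR without any 1 of AAV8-Null replicates 1, 3 and 4 and AAV8-IGFBP1 replicates 1 and 2. Over all genes 41 of 14692 were called higher without AAV8-Null replicate 2. In the fits with 0 members called, 16 to 46 of 14695 to 15230 genes were called higher. Over these 7 fits 45 to 50 members had a log2 fold change above 0. The number of members whose groups did not overlap was 20 to 23 in 6 of the 7 fits, where the share over all tested genes was 8.23% to 11.1%. It was 35 (68.6%) without AAV8-IGFBP1 replicate 3, against 10.9% of all tested genes.

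Values below are CPM in AAV8-Null replicates 1, 2, 3 and 4 and then in AAV8-IGFBP1 replicates 1, 2 and 3. CPM does not correct for gene length, so levels of different genes are not compared. Unless another tool is named, a test is edgeR's, given as the log2 fold change with its standard error (SE) and the p adjusted over all tested genes.

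Several IFIT proteins bind viral RNA and block its translation. Ifit3 lay at 2.96, 2.40, 2.43 and 2.63 CPM in AAV8-Null and 5.04, 6.94 and 4.52 CPM in AAV8-IGFBP1. Its groups did not overlap, with means of 2.60 ± 0.258 (SD, n = 4) and 5.50 ± 1.28 (SD, n = 3), and it rose (log2 fold change 1.07, SE 0.17, edgeR adjusted p = 0.0324). Without each of the 6 libraries whose removal lost the call (all but AAV8-IGFBP1 replicate 3), its edgeR adjusted p was 0.0560 to 0.0911. Ifit2, a relative that binds RNA rich in A and U, lay at 1.81, 1.76, 2.07 and 1.82 CPM in AAV8-Null and 4.23, 3.39 and 2.59 CPM in AAV8-IGFBP1. Its AAV8-Null values were close together and all AAV8-IGFBP1 values were higher, but it missed the test (log2 fold change 0.87, SE 0.18, edgeR adjusted p = 0.0795). Ifit1, which recognises RNA caps that lack methylation, lay at 1.45, 1.84, 1.96 and 1.17 CPM in AAV8-Null and 2.34, 2.22 and 2.19 CPM in AAV8-IGFBP1 and also missed it (log2 fold change 0.49, SE 0.20, edgeR adjusted p = 0.356). Ifit3b, a close copy of Ifit3, lay at 5.07, 5.64, 4.40 and 4.55 CPM in AAV8-Null and 5.58, 5.66 and 4.65 CPM in AAV8-IGFBP1, with overlapping groups (log2 fold change 0.11, SE 0.13, edgeR adjusted p = 0.796).

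Much sequence is common to Ifit3 and Ifit3b, so how reads were divided between them bears on both values. Of the 31-base words in the Ifit3 transcripts, 61.8% also occur in Ifit3b, and Ifit3 had fractional estimated counts in all 7 libraries. With the counts of both summed, an alternative added after the data were seen, the pair lay at 8.03, 8.04, 6.83 and 7.18 CPM in AAV8-Null and 10.6, 12.6 and 9.16 CPM in AAV8-IGFBP1. The groups still did not overlap, and the sum missed the test (log2 fold change 0.52, SE 0.12, edgeR adjusted p = 0.104). Bst2 shared none of its words with another gene.

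**Figure D2:**
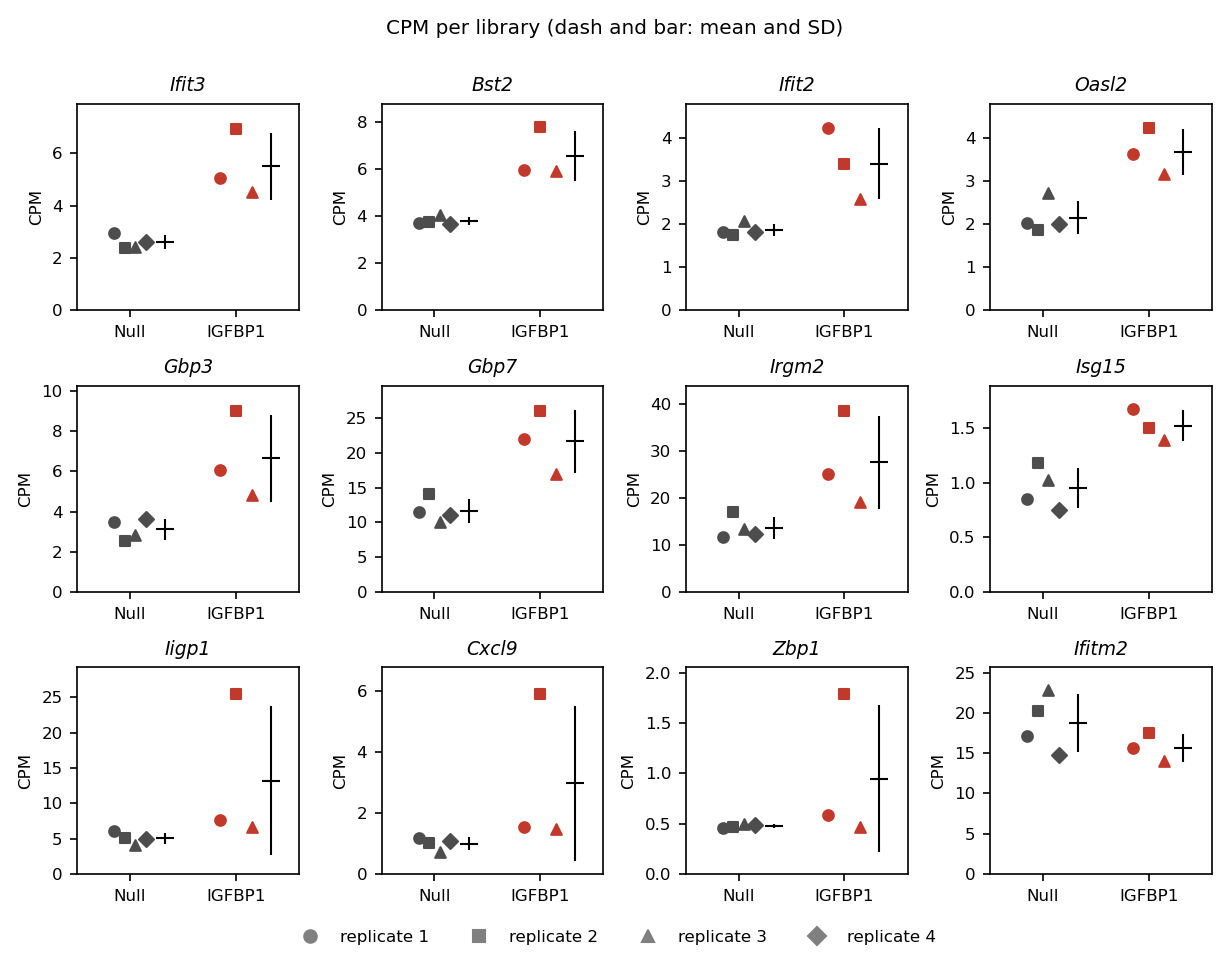
CPM of 12 members in each library (1 marker shape per replicate number), in the AAV8-Null (n = 4) and AAV8-IGFBP1 (n = 3) groups, with a dash for the group mean and a vertical line for its SD. Ifit3, Bst2, Cxcl9 and Iigp1 all separate the groups, but Cxcl9 and Iigp1 are carried upward mainly by AAV8-IGFBP1 replicate 2.

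Restriction factors at membranes act on viral entry and release. Bst2, whose product tethers budding virus particles to the cell, lay at 3.71, 3.75, 4.03 and 3.65 CPM in AAV8-Null and 5.97, 7.76 and 5.93 CPM in AAV8-IGFBP1. The AAV8-Null values were within a narrow band (3.79 ± 0.169, SD, n = 4), all AAV8-IGFBP1 values were above it (6.55 ± 1.05, SD, n = 3), and Bst2 rose (log2 fold change 0.79, SE 0.13, edgeR adjusted p = 0.0335). Without each library other than AAV8-IGFBP1 replicate 3 the adjusted p was 0.0576 to 0.113 by edgeR. Rtp4, which encodes an interferon-induced transmembrane chaperone with antiviral activity, lay at 2.19, 1.41, 1.99 and 1.27 CPM in AAV8-Null and 2.78, 3.41 and 2.74 CPM in AAV8-IGFBP1, with no overlap (log2 fold change 0.80, SE 0.21, edgeR adjusted p = 0.166). The IFITM proteins hinder the fusion of virus and cell membranes. Ifitm1 had few counts (3 to 28 per library) and lay at 0.219, 0.0580, 0.236 and 0.341 CPM in AAV8-Null and 0.608, 0.459 and 0.332 CPM in AAV8-IGFBP1, with overlap (log2 fold change 1.15, SE 0.50, edgeR adjusted p = 0.382). Ifitm3 lay at 15.3, 16.2, 18.5 and 13.2 CPM in AAV8-Null and 21.6, 18.3 and 16.6 CPM in AAV8-IGFBP1, and the groups overlapped (log2 fold change 0.25, SE 0.12, edgeR adjusted p = 0.444). Ifitm2 was the single member with a log2 fold change below 0, at 17.1, 20.3, 22.9 and 14.7 CPM in AAV8-Null and 15.6, 17.5 and 14.0 CPM in AAV8-IGFBP1, again with overlap (log2 fold change -0.26, SE 0.15, edgeR adjusted p = 0.534). Lgals3bp, which encodes a secreted galectin-binding glycoprotein, lay at 16, 16.9, 13.3 and 13.3 CPM in AAV8-Null and 18.2, 32.1 and 15.6 CPM in AAV8-IGFBP1, with AAV8-IGFBP1 replicate 2 far above the rest (log2 fold change 0.56, SE 0.25, edgeR adjusted p = 0.431).

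The ubiquitin-like modifier ISG15 is attached to proteins by enzymes that include HERC6 in the mouse and removed by USP18. Isg15 lay at 0.854, 1.18, 1.02 and 0.754 CPM in AAV8-Null and 1.67, 1.5 and 1.39 CPM in AAV8-IGFBP1. All 3 AAV8-IGFBP1 libraries were above the AAV8-Null libraries, and the test was missed (log2 fold change 0.67, SE 0.21, edgeR adjusted p = 0.237). Herc6 lay at 1.37, 0.657, 1.54 and 1.39 CPM in AAV8-Null and 1.93, 2.22 and 1.39 CPM in AAV8-IGFBP1, where AAV8-Null replicate 2 was low and the groups overlapped (log2 fold change 0.58, SE 0.30, edgeR adjusted p = 0.460). Usp18, which also dampens signalling at the interferon receptor, lay at 1.43, 1.87, 1.39 and 1.34 CPM in AAV8-Null and 2.00, 2.10 and 1.62 CPM in AAV8-IGFBP1 (log2 fold change 0.33, SE 0.19, edgeR adjusted p = 0.521). Trim25, a ubiquitin ligase that activates the sensor RIG-I, lay at 8.46, 8.52, 10.1 and 10.4 CPM in AAV8-Null and 10.5, 11.3 and 8.54 CPM in AAV8-IGFBP1, and the groups overlapped (log2 fold change 0.11, SE 0.12, edgeR adjusted p = 0.768). Of these 4 members 0 passed the test by edgeR or DESeq2, 1 (Isg15) had an unadjusted edgeR p under 0.05, and the median log2 fold change was 0.46.

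OAS proteins make 2′-5′-linked oligoadenylates that switch on RNase L, and the OAS-like proteins are their relatives. Oasl2 lay at 2.03, 1.86, 2.72 and 2.00 CPM in AAV8-Null and 3.62, 4.23 and 3.17 CPM in AAV8-IGFBP1, without overlap (log2 fold change 0.78, SE 0.18, edgeR adjusted p = 0.0996). Oas3 had few counts (2 to 16 per library) and lay at 0.0596, 0.116, 0.288 and 0.0487 CPM in AAV8-Null and 0.282, 0.290 and 0.354 CPM in AAV8-IGFBP1, so its values are imprecise (log2 fold change 1.30, SE 0.56, edgeR adjusted p = 0.382). Oas2 lay at 1.47, 1.20, 2.09 and 1.22 CPM in AAV8-Null and 2.26, 1.45 and 2.43 CPM in AAV8-IGFBP1, with overlapping groups (log2 fold change 0.46, SE 0.26, edgeR adjusted p = 0.507). Oas1a, of whose words 68.7% occur in Oas1g, lay at 0.675, 0.734, 0.576 and 0.462 CPM in AAV8-Null and 0.890, 0.822 and 0.553 CPM in AAV8-IGFBP1 (log2 fold change 0.29, SE 0.28, edgeR adjusted p = 0.729). Oasl1, a translational brake on Irf7, had 8 to 29 counts per library and a log2 fold change of 0.52. The groups overlapped in 4 of these 5 members, all but Oasl2, and 0 of 5 passed the test by edgeR, with 2 at an unadjusted p under 0.05 and 1 (Oasl2) called by DESeq2. MX proteins are dynamin-like GTPases that trap viral nucleoproteins. Mx1 (3 to 18 counts) lay at 0.238, 0.0966, 0.314 and 0.0730 CPM in AAV8-Null and 0.0868, 0.435 and 0.133 CPM in AAV8-IGFBP1. Mx2 (6 to 19 counts) lay at 0.219, 0.290, 0.419 and 0.146 CPM in AAV8-Null and 0.412, 0.145 and 0.354 CPM in AAV8-IGFBP1. Both were too sparse to order the groups, with log2 fold changes of 0.27 and 0.20 that turned to -0.69 for Mx1 without AAV8-IGFBP1 replicate 2 and to -0.084 for Mx2 without AAV8-IGFBP1 replicate 1. C57BL/6J mice carry defective Mx1 and Mx2 alleles.

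RNA sensors and RNA-responsive enzymes detect or modify viral RNA. Ifih1, which encodes MDA5, the sensor of long double-stranded RNA, lay at 4.41, 5.39, 4.03 and 4.04 CPM in AAV8-Null and 7.10, 6.75 and 5.29 CPM in AAV8-IGFBP1. Only AAV8-IGFBP1 replicate 3 fell inside the AAV8-Null range (log2 fold change 0.51, SE 0.15, edgeR adjusted p = 0.185). Zbp1, a sensor of left-handed nucleic acids that can start necroptosis, lay at 0.457, 0.464, 0.497 and 0.487 CPM in AAV8-Null and 0.586, 1.79 and 0.465 CPM in AAV8-IGFBP1 and was high in AAV8-IGFBP1 replicate 2 alone (log2 fold change 0.98, SE 0.45, edgeR adjusted p = 0.401). Without that library its log2 fold change was 0.14. Dhx58, which encodes LGP2, lay at 0.536, 0.580, 0.445 and 0.852 CPM in AAV8-Null and 0.695, 1.33 and 0.708 CPM in AAV8-IGFBP1 (log2 fold change 0.59, SE 0.33, edgeR adjusted p = 0.514). Eif2ak2, the kinase PKR that halts translation, had a log2 fold change of 0.20. Adar, the RNA adenosine deaminase, lay at 3.89, 3.92, 3.90 and 3.21 CPM in AAV8-Null and 4.21, 4.42 and 3.19 CPM in AAV8-IGFBP1, with AAV8-Null replicate 4 and AAV8-IGFBP1 replicate 3 low (log2 fold change 0.08, SE 0.15, edgeR adjusted p = 0.880).

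Enzymes of nucleotide metabolism limit viral replication by altering the nucleotide pool. Rsad2 encodes viperin, which makes a chain-terminating nucleotide, and its neighbour Cmpk2 encodes a mitochondrial nucleotide kinase. Cmpk2 lay at 1.89, 1.18, 1.62 and 1.61 CPM in AAV8-Null and 2.58, 2.27 and 2.04 CPM in AAV8-IGFBP1, with no overlap (log2 fold change 0.55, SE 0.19, edgeR adjusted p = 0.297). Rsad2 lay at 2.50, 2.55, 1.68 and 3.72 CPM in AAV8-Null and 3.91, 5.83 and 3.19 CPM in AAV8-IGFBP1, where AAV8-IGFBP1 replicate 3 was below AAV8-Null replicate 4 (log2 fold change 0.72, SE 0.28, edgeR adjusted p = 0.348). Samhd1, whose product degrades deoxynucleotides, lay at 19.2, 19.3, 20.1 and 20.7 CPM in AAV8-Null and 21.3, 22 and 21.2 CPM in AAV8-IGFBP1. Its groups did not overlap, but the difference was small (log2 fold change 0.12, SE 0.06, edgeR adjusted p = 0.475). Of the IFI and XAF1 members, Ifi44 lay at 0.556, 0.734, 0.812 and 0.535 CPM in AAV8-Null and 1.24, 1.33 and 1.97 CPM in AAV8-IGFBP1, the highest value being in AAV8-IGFBP1 replicate 3 (log2 fold change 1.20, SE 0.26, edgeR adjusted p = 0.0851). Xaf1, which encodes a factor that promotes cell death, lay at 1.47, 1.22, 2.04 and 1.80 CPM in AAV8-Null and 2.39, 2.47 and 2.15 CPM in AAV8-IGFBP1, also without overlap (log2 fold change 0.52, SE 0.20, edgeR adjusted p = 0.327). Ifi35, which had the lowest log2 fold change of its role, lay at 8.60, 7.94, 8.38 and 6.74 CPM in AAV8-Null and 8.36, 8.99 and 8.32 CPM in AAV8-IGFBP1, with overlap (log2 fold change 0.11, SE 0.10, edgeR adjusted p = 0.716). Ifi27 also overlapped between the groups, and its log2 fold change was 0.32 with and -0.16 without AAV8-IGFBP1 replicate 2.

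GBPs are large GTPases that coat and disrupt vacuoles and membranes of intracellular pathogens. Gbp7 lay at 11.4, 14.1, 10.0 and 11.1 CPM in AAV8-Null and 22, 25.9 and 17.0 CPM in AAV8-IGFBP1, and Gbp3 at 3.5, 2.55, 2.83 and 3.63 CPM in AAV8-Null and 6.08, 8.99 and 4.83 CPM in AAV8-IGFBP1. Neither overlapped between the groups, and both missed the test. For Gbp7 the values were log2 fold change 0.89, SE 0.16, edgeR adjusted p = 0.0635. Those for Gbp3 were log2 fold change 1.08, SE 0.22, edgeR adjusted p = 0.0711. Gbp7 was called without AAV8-Null replicate 2 (edgeR adjusted p = 0.0498) and without AAV8-IGFBP1 replicate 3 (0.0207), and Gbp3 without AAV8-IGFBP1 replicate 3 (0.0474). Gbp2 lay at 3.81, 4.89, 5.00 and 4.53 CPM in AAV8-Null and 6.27, 12.5 and 4.74 CPM in AAV8-IGFBP1, its AAV8-IGFBP1 replicate 3 falling inside the AAV8-Null range (log2 fold change 0.78, SE 0.31, edgeR adjusted p = 0.373). Gbp5, which also promotes inflammasome assembly, lay at 2.36, 2.11, 1.15 and 3.21 CPM in AAV8-Null and 3.99, 3.87 and 2.88 CPM in AAV8-IGFBP1, again with 1 AAV8-IGFBP1 library inside that range (log2 fold change 0.69, SE 0.29, edgeR adjusted p = 0.375). Gbp9 lay at 7.19, 5.20, 5.68 and 7.45 CPM in AAV8-Null and 8.38, 8.70 and 7.15 CPM in AAV8-IGFBP1, with overlap (log2 fold change 0.34, SE 0.14, edgeR adjusted p = 0.372). Gbp4 had a log2 fold change of 0.50. Gbp6 lay at 14.1, 9.37, 10.0 and 13.5 CPM in AAV8-Null and 8.33, 20.4 and 7.53 CPM in AAV8-IGFBP1: AAV8-IGFBP1 replicates 1 and 3 were below all AAV8-Null libraries and replicate 2 above them (log2 fold change 0.04, SE 0.39, edgeR adjusted p = 0.983). Its log2 fold change was -0.57 without that library. Reads of Gbp6 are hard to assign, since 74.2% of its words occur in other genes, 67.8% in Gm43302. For Gbp7 this share was 14.7%, and its estimated counts were fractional in all 7 libraries. With the counts of the 7 GBP members summed, an alternative added after the data were seen, the log2 fold change was 0.58 (SE 0.20, edgeR adjusted p = 0.323).

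IRGs are smaller GTPases that work with the GBPs at pathogen vacuoles, and the IRGM proteins regulate the others. The median log2 fold change of the 5 members was 0.85, and 4 of the 5 had groups that did not overlap, against 6.33% of all tested genes. Irgm1 lay at 9.91, 9.95, 9.27 and 10.1 CPM in AAV8-Null and 11.9, 13.6 and 12.0 CPM in AAV8-IGFBP1, with little spread within a group (log2 fold change 0.35, SE 0.08, edgeR adjusted p = 0.1002). Irgm2 lay at 11.7, 17.0, 13.4 and 12.2 CPM in AAV8-Null and 25.0, 38.5 and 19.1 CPM in AAV8-IGFBP1 (log2 fold change 1.02, SE 0.25, edgeR adjusted p = 0.175). Its neighbour Igtp, also known as Irgm3, lay at 9.44, 9.57, 7.09 and 7.66 CPM in AAV8-Null and 12.9, 22.3 and 9.74 CPM in AAV8-IGFBP1 (log2 fold change 0.82, SE 0.28, edgeR adjusted p = 0.311). Both were highest in AAV8-IGFBP1 replicate 2 and lowest, of their group, in replicate 3. Of the Igtp words 15.9% occur in Irgm2, and both genes had fractional estimated counts in all 7 libraries. Iigp1, an effector GTPase that loads onto vacuoles, lay at 6.02, 5.08, 4.11 and 4.89 CPM in AAV8-Null and 7.58, 25.4 and 6.66 CPM in AAV8-IGFBP1. AAV8-IGFBP1 replicate 2 was more than 3 times replicates 1 and 3, and the test was missed (log2 fold change 1.39, SE 0.52, edgeR adjusted p = 0.358). Tgtp1 lay at 1.95, 0.754, 0.969 and 1.61 CPM in AAV8-Null and 2.60, 3.02 and 1.55 CPM in AAV8-IGFBP1, with overlap (log2 fold change 0.85, SE 0.35, edgeR adjusted p = 0.365). Its reads are hard to assign, as 84.4% of its words occur in other genes, 83.2% in Tgtp2. By edgeR 0 of the 5 passed the test while all 5 had an unadjusted p under 0.05, and DESeq2 called Igtp, Irgm1 and Irgm2.

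PARP14 and PARP9 transfer ADP-ribose, PARP9 acting in a complex with the ubiquitin ligase DTX3L. Parp14 lay at 7.19, 7.50, 8.53 and 7.2 CPM in AAV8-Null and 10.2, 11.0 and 9.50 CPM in AAV8-IGFBP1, without overlap (log2 fold change 0.43, SE 0.10, edgeR adjusted p = 0.0908). Its genomic neighbours had overlapping groups. Dtx3l lay at 11.5, 11.8, 12.6 and 11.9 CPM in AAV8-Null and 12.2, 12.8 and 11.8 CPM in AAV8-IGFBP1 (log2 fold change 0.04, SE 0.07, edgeR adjusted p = 0.871). Parp9 lay at 6.81, 5.78, 5.65 and 6.30 CPM in AAV8-Null and 6.64, 7.40 and 5.45 CPM in AAV8-IGFBP1 (log2 fold change 0.08, SE 0.13, edgeR adjusted p = 0.849). Whether Parp14 differs from these neighbours was not tested. Trim30a, a ubiquitin ligase that restrains inflammatory signalling, lay at 2.72, 2.18, 2.30 and 2.04 CPM in AAV8-Null and 2.65, 3.14 and 2.66 CPM in AAV8-IGFBP1 (log2 fold change 0.28, SE 0.16, edgeR adjusted p = 0.502). Cxcl9, a chemokine that draws T cells through CXCR3, lay at 1.17, 1.02, 0.707 and 1.09 CPM in AAV8-Null and 1.54, 5.90 and 1.48 CPM in AAV8-IGFBP1. Its groups did not overlap, but AAV8-IGFBP1 replicate 2 set the size of the difference: the log2 fold change was 1.56 with it (SE 0.52, edgeR adjusted p = 0.293) and 0.59 without it. Stat2, the transcription factor subunit of the type I route, lay at 5.11, 4.29, 6.00 and 4.77 CPM in AAV8-Null and 5.77, 7.13 and 5.14 CPM in AAV8-IGFBP1, and the groups overlapped (log2 fold change 0.26, SE 0.15, edgeR adjusted p = 0.535).

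**Figure D3:**
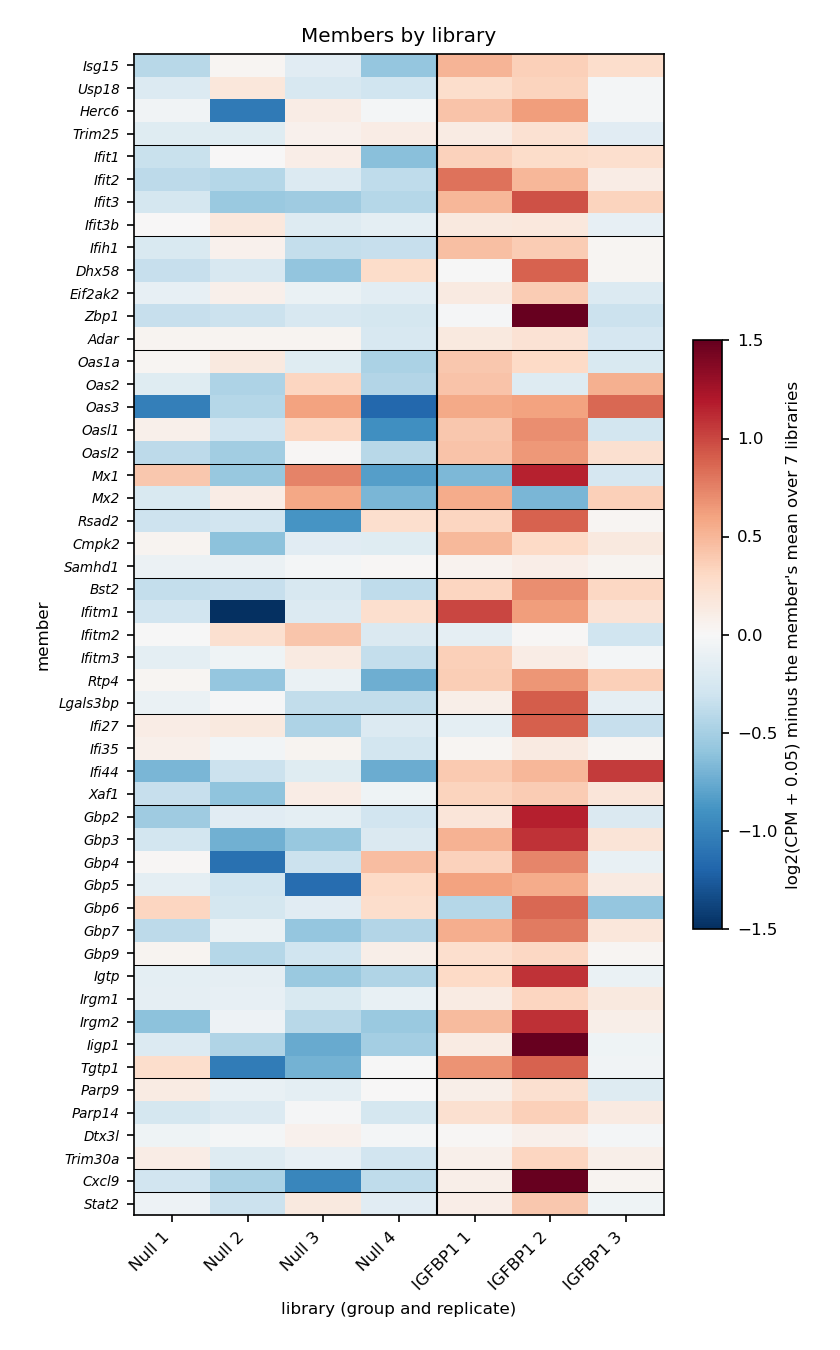
Log2 of CPM plus 0.05 for each member in each library, centred on the mean of the member over the 7 libraries. Colours are limited at 1.5 in either direction and members are grouped by role. AAV8-IGFBP1 replicate 2 holds the highest value of 37 of the 51 tested members, and AAV8-IGFBP1 replicate 3 is the palest of its group.

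AAV8-IGFBP1 replicate 2 had the highest value of 37 of the 51 members, whereas it was highest for 17.7% of all tested genes. AAV8-IGFBP1 replicate 1 was highest for 9 members, replicate 3 for 3 and AAV8-Null replicate 3 for 2 (Mx2 and Ifitm2). The lowest value was in an AAV8-Null library for 45 members. The mean of the members' centred log2 CPM was 0.27 in AAV8-IGFBP1 replicate 1, 0.58 in replicate 2 and 0.05 in replicate 3, while the AAV8-Null libraries ranged from -0.29 to -0.17. Every AAV8-IGFBP1 library was thus above every AAV8-Null library, and replicate 3 was closest to them. Igfbp1 followed the same order of libraries: 34.5 CPM in replicate 2, 4.38 in replicate 1 and 3.14 in replicate 3. With 3 libraries no relation between them was tested.

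The value of that library was at least 2 times the mean of the other AAV8-IGFBP1 libraries for 7 of 51 members, against 4.02% of all tested genes, a rule chosen after the values were seen. The 7 were Cxcl9, Mx1, Iigp1, Zbp1, Gbp6, Gbp2 and Ifi27, with ratios of 3.90, 3.96, 3.57, 3.41, 2.58, 2.26 and 2.21. Without that library the median log2 fold change over all members was 0.38, with 45 of 51 above 0. By role, leaving it out took the median from 0.69 to 0.28 for the 7 GBPs, from 0.85 to 0.50 for the 5 IRGs, from 0.51 to 0.14 for the 5 RNA sensors and enzymes and from 0.68 to 0.46 for the 6 membrane and secreted factors. It went from 0.46 to 0.35 for the 4 ISG15 system members, from 0.55 to 0.44 for the 3 nucleotide enzymes, from 0.42 to 0.28 for the 4 IFI and XAF1 members and from 0.18 to 0.10 for the 4 members of the PARP group. For the 2 MX members it went from 0.23 to -0.083. The median did not fall for the 4 IFIT members, 0.68 and 0.69, or the 5 OAS members, 0.52 and 0.66. The mean level in AAV8-IGFBP1 replicates 1, 2 and 3 was 0.45, 0.47 and 0.15 for the IFIT members and 0.29, 0.78 and -0.05 for the GBPs. Whether the roles differ in this was not tested.

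**Figure D4:**
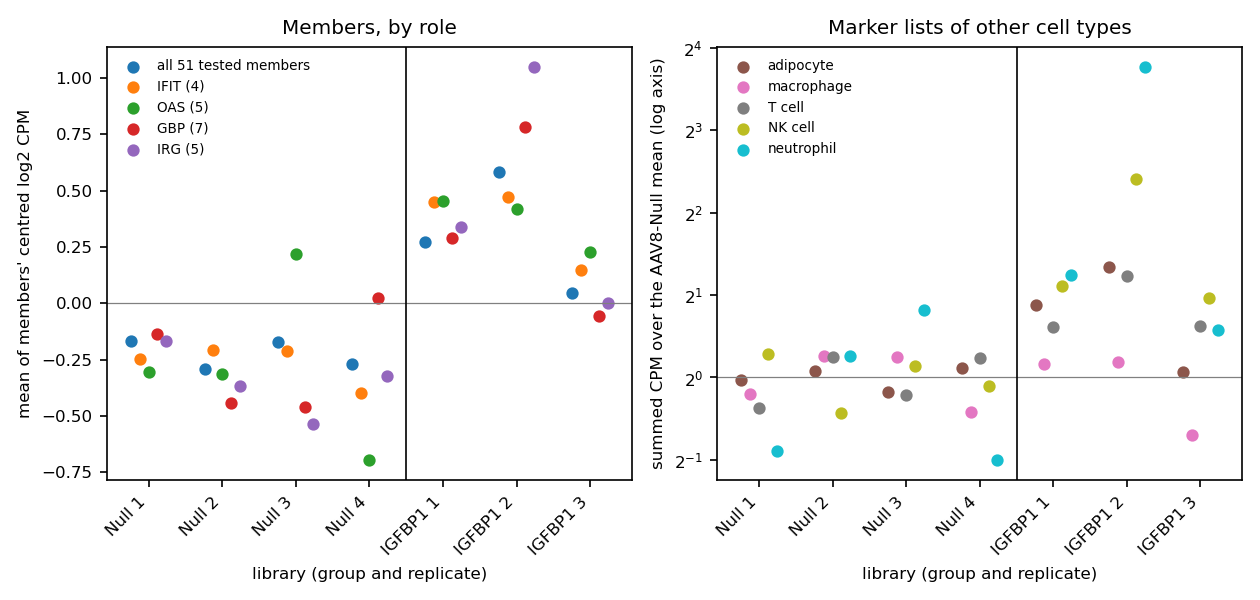
Left, mean centred log2 CPM of all 51 tested members and of the IFIT, OAS, GBP and IRG members in each library. Right, summed CPM of the adipocyte, macrophage, T cell, NK cell and neutrophil markers over the AAV8-Null mean on a log axis. AAV8-IGFBP1 replicate 2 is the highest for all members together, for the IFIT, GBP and IRG members and for 4 of the 5 marker lists. The OAS members are highest in AAV8-IGFBP1 replicate 1. Macrophage markers are highest in AAV8-Null replicate 2 and lowest in AAV8-IGFBP1 replicate 3.

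Several marker lists of other cells, and ribosomal RNA, moved with that library or with the group, whereas other lists did neither. The values of both kinds are given beside the members. Their part in the result was not tested. Sums over a whole list are in AAV8-Null and then in AAV8-IGFBP1 replicates 1, 2 and 3, and each list's most abundant gene was also left out, a choice made after the data were seen. The 6 neutrophil markers summed to 0.754 to 2.67 CPM against 3.58, 20.7 and 2.26 CPM, and without S100a8 to 0.487 to 1.75 CPM against 2.19, 10.3 and 1.26 CPM. Most of what was left was S100a9, at 1.80, 8.87 and 0.819 CPM in the AAV8-IGFBP1 libraries. In AAV8-IGFBP1 replicate 2, Csf3r, Retnlg, Mmp8 and Ly6g lay at 0.822, 0.314, 0.266 and 0.0242 CPM, from 34, 13, 11 and 1 counts. Of the 6 markers, 3 (S100a8, S100a9 and Csf3r) passed the count filter. The 9 T cell markers summed to 2.21 to 3.36 CPM against 4.34, 6.67 and 4.38 CPM, and without Cd28 to 0.219 to 0.419 CPM against 0.304, 2.06 and 0.553 CPM. The 8 NK cell markers summed to 0.193 to 0.318 CPM against 0.564, 1.38 and 0.509 CPM, and without Klrk1 to 0.0730 to 0.238 CPM against 0.412, 1.06 and 0.421 CPM. The NK cell sums did not overlap between the groups either way, and the T cell sums did not overlap with Cd28 but did without it. Few counts lie behind both, since Cd28 alone of the 9 T cell markers and none of the 8 NK cell markers passed the count filter.

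The 9 adipocyte markers summed to 1016 to 1241 CPM against 2108, 2905 and 1203 CPM, and without Car3, which muscle fibres also express strongly, to 243 to 486 CPM against 406, 1472 and 304 CPM. The 7 hepatocyte markers summed to 12.7 to 16.2 CPM against 34.8, 74.9 and 19.2 CPM, without overlap, and without Cyp2e1 to 0.243 to 2.36 CPM against 2.02, 0.387 and 0.664 CPM, with overlap. Alb, the defining hepatocyte gene, had 32, 25, 46 and 9 counts in AAV8-Null and 40, 8 and 23 in AAV8-IGFBP1. Replicate 2 of AAV8-IGFBP1 was thus highest in both sums of the adipocyte list. It was lowest in Alb, but its 8 counts and the 9 of AAV8-Null replicate 4 are within counting error. The 7 conventional dendritic cell markers summed to 6.24 to 10.3 CPM against 5.93, 8.97 and 6.38 CPM, and without Zbtb46 to 1.43 to 2.07 CPM against 1.54, 3.43 and 1.53 CPM. The 6 B cell markers summed to 73.2 to 136 CPM against 256, 106 and 167 CPM, and without Ighm to 0.367 to 0.831 CPM against 0.326, 0.991 and 0.398 CPM. Both lists were highest in replicate 2 only without their most abundant gene. The 12 macrophage markers summed to 75.2 to 121 CPM against 113, 115 and 62.5 CPM, with overlap. Plasmacytoid dendritic cells make type I interferon, and their 6 markers summed to 50.2 to 57.8 CPM against 49.3, 54.6 and 52.0 CPM. Bst2, itself a member that rose, and Cox6a2, shared with muscle fibres, were on this list and were left out of its sum. With Tcf4 also left out, the sums were 1.36 to 1.88 CPM against 1.74, 1.38 and 0.930 CPM, again with overlap. The 7 endothelial markers summed to 179 to 218 CPM against 184, 175 and 180 CPM. Without Cdh5 they summed to 122 to 142 CPM against 123, 117 and 120 CPM. The 7 tenocyte markers summed to 167 to 364 CPM against 294, 182 and 77.9 CPM. Without Thbs4 they summed to 85.9 to 200 CPM against 152, 95.2 and 33.4 CPM. The endothelial and tenocyte sums overlapped between the groups. The ribosomal RNA gene Rn18s held 0.593% to 1.32% of the counts in AAV8-Null and 1.09%, 2.29% and 1.52% in AAV8-IGFBP1, highest in replicate 2. In each of these lists 0 markers were at 0 counts in all 7 libraries.

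Upstream of the effectors, 46 of 49 listed symbols of ligand, receptor, sensor and transcription factor genes were in the table and 36 were tested. Each symbol that was not found is another name of a gene found under a different listed symbol. This list, like that of the other interferon-stimulated genes, was chosen with earlier results known. Irf7 and Ifngr2 rose and 0 fell by edgeR, with 1 lower at an unadjusted p under 0.05 and 0 called lower by DESeq2 or limma-voom. Over all tested genes edgeR called 0.362% higher, and 1023 of 14935 were lower at that unadjusted p. The log2 fold change was above 0 in 24 of 36, against 49.9% of all tested genes, with a median of 0.12. Without AAV8-IGFBP1 replicate 2 it was above 0 in 19 of 36, with a median of 0.0089. Irf7, the transcription factor that amplifies type I interferon responses, lay at 2.07, 2.24, 2.85 and 1.95 CPM in AAV8-Null and 7.49, 8.10 and 8.63 CPM in AAV8-IGFBP1, and AAV8-IGFBP1 replicate 2 did not stand out (log2 fold change 1.83, SE 0.14, edgeR adjusted p = 0.00388). Ifngr2, the signalling chain of the interferon gamma receptor, lay at 62.7, 66.4, 63.4 and 67.0 CPM in AAV8-Null and 106, 96.5 and 101 CPM in AAV8-IGFBP1, with no overlap (log2 fold change 0.64, SE 0.06, edgeR adjusted p = 0.00618). Both were called without each of the 7 libraries in turn. After the 2 called genes, the lowest p belonged to Irf5 (log2 fold change -0.57, edgeR adjusted p = 0.185) and Mavs (-0.24, edgeR adjusted p = 0.401), which encodes the adaptor of the RNA sensors. Of the ligands, Ifna1, Ifna2, Ifna4, Ifnb1, Ifne, Ifnk, Ifnl2 and Ifnl3 had 0 counts in all 7 libraries, which allows up to 0.0580 to 0.0785 CPM per library for counting error alone. Ifng had 0, 0, 1 and 2 counts in AAV8-Null and 0, 2 and 0 in AAV8-IGFBP1.

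A list of 105 symbols of other interferon-stimulated genes had 102 in the table and 83 tested. Wars1, among those not found, is another name of Wars, which was tested. By edgeR 0 were called higher and 0 lower. At an unadjusted p under 0.05, 16 were higher and 4 lower, DESeq2 called 3 higher (Tnfsf10, Apol9b and Xdh) and limma-voom 0. Of all 14935 tested genes, 866 were higher and 1023 lower at that unadjusted edgeR p. DESeq2 called 1.45% of all genes higher. Without AAV8-Null replicate 2 edgeR called Tnfsf10, and without AAV8-IGFBP1 replicate 3 it called Xdh. The log2 fold change was above 0 in 61 and below 0 in 22, against 49.9% of all tested genes above 0. Its median was 0.23 and became 0.09 without AAV8-IGFBP1 replicate 2. The lowest p belonged to Tnfsf10, which encodes the death ligand TRAIL, at 4.91, 7.54, 4.87 and 4.23 CPM in AAV8-Null and 12.5, 10.5 and 10.1 CPM in AAV8-IGFBP1 (log2 fold change 1.03, SE 0.19, edgeR adjusted p = 0.0635). Apol9b, an apolipoprotein L gene, lay at 0.219, 0.155, 0.288 and 0.170 CPM in AAV8-Null and 0.803, 0.701 and 0.553 CPM in AAV8-IGFBP1 (log2 fold change 1.72, SE 0.33, edgeR adjusted p = 0.0635). In both genes all 3 AAV8-IGFBP1 libraries were above all AAV8-Null libraries and replicate 2 was not the highest. Xdh (log2 fold change 0.49, edgeR adjusted p = 0.118) and Slfn8 (1.00, edgeR adjusted p = 0.169) came next, both highest in AAV8-IGFBP1 replicate 2. That library was the highest for 41 of the 83 tested genes of this list (49.4%), against 17.7% of all tested genes.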

How the data were processed

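Total RNA of quadriceps from 7 libraries (4 AAV8-Null, 3 AAV8-IGFBP1) was extracted by RNeasy Mini Kit and made into libraries by the Universal Plus mRNA-Seq kit, per the labels' protocols. The values were estimated counts for each gene symbol, which the authors deposited as a single table. The submitters' processing notes name STAR 2.7.9a, Salmon 1.10.1, Trim Galore 0.6.7, cutadapt 3.4, R 4.2.2 and GRCm39, with no roles. Overlapping genes may share reads, because the strand setting (as the annotation release) is not given in the sources used here, and near-identical genes divide reads by estimation. Of the 52 members, 32 had a fractional count in at least 1 library.

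Counts were rounded and analysed in R 4.3.3 with edgeR 4.0.16: filterByExpr (minimum count 10, minimum total 15), TMM scaling, estimateDisp, robust glmQLFit and glmQLFTest on group, with Benjamini-Hochberg adjustment over 14935 genes and a threshold of 0.05. The SE is the absolute log2 fold change over the root of F. CPM uses TMM-scaled totals, and log2 CPM a prior count of 2. A count of 0 allows up to 3 counts, or 0.0580 to 0.0785 CPM per library. This floor covers counting error alone, as reads were not collapsed to molecules. Counts of libraries within a group differed beyond sampling noise (chi-square over its degrees of freedom 20.4 to 54.6), and none was treated as a repeat. Alternatives were DESeq2 1.42.0, limma 3.58.1 voom, other scalings and filters, a replicate block, a threshold of 0.1 and each library left out. The steps were tested on simulated data.

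The members, gene lists and alternatives were chosen with earlier results of these data known. Values per library are given for called members and, per role, for up to 3 members with the lowest p and the one with the lowest log2 fold change; others named were picked after their values were seen. Shared words are 31-base words of GENCODE M21 transcripts on GRCm38, a build other than that of the counts. For this reason the only coordinates given are those of the printed promoter stretches, on GRCm38.p6. The values of 1 gene of the upstream list are not reported here.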

Additional observations from a re-analysis of the deposited data

Results flagged for a closer look

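Among the 52 members and 12 marker lists, 2 values in the AAV8-Null group lay far from the other 3 libraries, the gap exceeding Dixon's critical share of the group's range. Adar was 3.21 CPM in AAV8-Null replicate 4 against 3.89 to 3.92 CPM in the others. The summed CPM of the tenocyte markers was 364 in AAV8-Null replicate 3 against 166.5 to 196.9 in the others. Chance flags about 1 in 20 groups.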

How the results depend on the processing

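Of the members, 2 were called higher, and this count was 13 by DESeq2, 1 by limma-voom, 8 with no count filter, 8 at an adjusted p under 0.1, and 0 to 5 when each library was left out. With other scalings (DESeq2's size factors, upper quartile) and a stricter filter Ifit3 and Bst2 were called again. The calls over all genes, 83, became 451 by DESeq2, 306 with no count filter, 215 at an adjusted p under 0.1 and 19 to 86 with a library left out. Members whose groups did not overlap numbered 19, and 20 to 35 with a library left out. Of the other interferon-stimulated genes 0 were called, 3 by DESeq2, 3 with no count filter and 0 to 1 with a library left out. The same replicate numbers did not pair the libraries (correlations -0.0984, 0.0682 and -0.0574), and not every library correlated best with its own number. With the replicate block 1 member (Gbp7), 19 genes and 1 upstream gene (Irf7) were called, and the log2 fold changes of Mx2, Mx1 and Gbp6 were -0.055, -0.10 and -0.014. Ifit3 had adjusted p = 0.0535 by limma-voom, 0.159 with the block and 0.104 summed with Ifit3b, and Bst2 0.178 with the block, by edgeR where no tool is named. With each library left out in turn, the log2 fold change ranged from -0.69 to 0.65 for Mx1, -0.57 to 0.29 for Gbp6, -0.16 to 0.55 for Ifi27, -0.022 to 0.19 for Parp9 and -0.013 to 0.21 for Adar, the lowest of each being without AAV8-IGFBP1 replicate 2, and from -0.084 to 0.52 for Mx2, lowest without AAV8-IGFBP1 replicate 1. Gbp6 was also -0.11 by limma-voom, and -0.05 and -0.03 when AAV8-Null replicates 2 and 3 were left out. The cause of these changes was not tested. Depth limits Mx1, Mx2, Oas3, Ifitm1 and Cxcl10, with few counts per library.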
